A study of Mus musculus and Homo sapiens with 15 samples.

Results

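The variable (V) and joining (J) segments of the T-cell receptor alpha chain were counted in RNA sequencing libraries of mouse T-lymphomas taken with and without arsenic trioxide (ATO). The segments were chosen by symbol, as every gene whose name starts with Trav or Traj followed by a digit. There were 190, made up of 130 Trav and 60 Traj segments, among the 52340 genes of the thymus table, and the same 190 symbols among the 56691 genes of the graft table. Of the Trav segments, 110 are annotated as V genes and 20 as V pseudogenes. Of the Traj segments, 51 are annotated as J genes and 9 as J pseudogenes, and the pseudogenes include the segments at both ends of the J cluster, Traj61 and Traj1.

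The thymus libraries came from W/W mice, which carry the p53 change R282W on both alleles and had T-lymphomas when sampled on day 150 after birth. There were 3 libraries from mice given water, 3 from mice given ATO whose tumours were progressing and 3 from mice given ATO whose tumours were regressing. The outcome defines the ATO groups, so treatment and outcome cannot be told apart in a comparison with water. The graft libraries came from tumours in C57 mice, labelled as a CDX model with genotype WT. Of these, 2 were from mice given phosphate-buffered saline (PBS) and 2 from mice given ATO. The labels name neither the grafted line nor the strain of the W/W mice nor the ATO dose, nor do they explain the replicate numbers. If replicates of a group were not separate mice, p-values measure only the spread between these samples, which may be technical.

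Alpha chain genes are assembled in developing thymocytes, where the RAG1 and RAG2 proteins cut beside a V and a J segment and repair enzymes join the ends. The first joins on a chromosome favour V segments close to the J cluster and J segments close to the V cluster. Later joins on the same chromosome replace them with V segments farther upstream and J segments closer to Trac, the constant gene. The delta chain constant gene Trdc lies between the V and J segments, and a V-to-J join removes it from that chromosome. Cells of a clone share their joins, whereas a thymus full of dividing precursors holds very many. The primary transcript of a joined gene also contains the J segments between the join and Trac until splicing removes them, and unjoined J segments can be transcribed too. The counts do not separate these kinds of RNA.

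The whole group lies on the plus strand of chromosome 14. In the thymus table the coordinates of all 190 segments were those of GENCODE mouse release M21 on GRCm38. There the V segments run from Trav1 to Trav23 (chr14:52427928-53977678). The J segments run from Traj61 to Traj1 (chr14:54155005-54218842), followed by Trac (ENSMUSG00000076928) at chr14:54220521-54224206. Trdc (ENSMUSG00000104876) lies at chr14:54142851-54148868. The graft table lists the segments in the same order and with the same lengths but in another build, so only the thymus coordinates are given. V segments have exonic lengths of 155 to 595 bases (median 360.5) and J segments of 29 to 72 bases (median 61). Shares below are raw counts and are not scaled by length.

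The J segments on which the results turn are shown 5′ to 3′, from the end next to V to the end next to Trac. Capitals mark the stretch TTNGGNNNNGG, searched on both strands, a base pattern that covers the codons of the Phe-Gly-X-Gly motif of a functional J segment. TTN also covers codons of leucine, and the reading frame was not checked. The pattern was found on the coding strand of 46 of the 60 J segments (76.7%) and on the other strand of none. The 46 were 44 of 51 J genes and 2 of 9 J pseudogenes. Sequences are those of GENCODE transcripts on GRCm38.
Traj61: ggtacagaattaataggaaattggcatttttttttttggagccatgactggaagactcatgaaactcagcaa
Traj58: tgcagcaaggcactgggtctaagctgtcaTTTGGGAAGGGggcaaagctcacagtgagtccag
Traj32: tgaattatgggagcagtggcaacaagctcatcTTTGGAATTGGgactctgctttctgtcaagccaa
Traj4: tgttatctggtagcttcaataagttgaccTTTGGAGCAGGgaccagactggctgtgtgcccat
Traj3: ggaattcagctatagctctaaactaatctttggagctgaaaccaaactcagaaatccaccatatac
Traj2: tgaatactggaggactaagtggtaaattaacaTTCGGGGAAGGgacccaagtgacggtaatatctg
Traj1: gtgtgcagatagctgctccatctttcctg
Their positions are chr14:54155005-54155076 (Traj61), chr14:54157280-54157342 (Traj58), chr14:54186101-54186166 (Traj32), chr14:54216291-54216353 (Traj4), chr14:54217292-54217357 (Traj3), chr14:54217836-54217901 (Traj2) and chr14:54218814-54218842 (Traj1). Traj3 is annotated as a J gene and lacks the pattern in this window.

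Many V segments exist as near-identical copies, named with d and n, which limits how reads can be assigned. The last 60 bases of Trav10 and Trav10n, which led different tumours, are printed beside those of Trav3-3, which led another.
Trav10: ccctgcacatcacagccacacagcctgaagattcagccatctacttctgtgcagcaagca
Trav10n: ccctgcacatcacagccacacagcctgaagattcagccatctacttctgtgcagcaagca
Trav3-3: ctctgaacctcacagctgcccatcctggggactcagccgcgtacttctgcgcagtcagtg
The genes lie at chr14:53505727-53506286 (Trav10), chr14:53122114-53122610 (Trav10n) and chr14:53665929-53666506 (Trav3-3). Over the last 330 bases Trav10 and Trav10n were 98.2% identical. Of the 130 V segments, 76 shared more than 50% of their 50-base windows with another V segment, 41 shared all of them and 10 shared none. How the authors' counting treated reads that fit several copies is not given in the sources used here, so values of single d and n copies and their partners are uncertain.

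The thymus libraries held between 12800367 and 17550594 counts each, and the graft libraries between 12922147 and 15637644. All 10 T-cell markers on the list, such as Cd3e, Lck and Thy1, had more than 3 counts in every mouse library. Summed markers of double-positive thymocytes ranged from 503 to 714 CPM (counts scaled to the library total, here adjusted by TMM, a normalization factor) in water, 2468 to 3610 in progressing and 5303 to 10906 in regressing libraries. Summed thymic epithelium markers ranged from 175 to 1052 CPM in water, 58.4 to 109 in progressing and 1522 to 1721 in regressing libraries. Summed B-cell markers ranged from 990 to 7656, 104 to 169 and 1242 to 1678 CPM in the same order. Summed adipocyte markers ranged from 40.0 to 145, 120 to 1384 and 157 to 5121 CPM, with 3 of 7 called higher in regressing than in water libraries. Summed fibroblast markers ranged from 336 to 946, 788 to 1339 and 131 to 440 CPM, with Col1a1, Col1a2 and Col3a1 called lower in regressing libraries than in both other groups. The share these cells have in the segment counts was not tested, and in bulk tissue fewer cells of a type and less RNA per cell cannot be told apart.

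Trac, which every alpha chain transcript carries, had 1615, 4699 and 5729 counts in the water libraries, in replicate order; libraries are named below by group and replicate, as in water 1. Progressing tumours gave 773, 939 and 4367 counts, and regressing tumours 4673, 3839 and 2128. Trac stood at 4886 and 3452 counts in PBS grafts and at 6345 and 5625 in ATO grafts. The groups overlapped in the thymus table, and Trac passed the test in none of the 4 comparisons (edgeR adjusted p = 0.858 for regressing against water, 0.445 for progressing against water, 0.543 for regressing against progressing and 0.170 for grafts).

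Summed V counts were 541, 1640 and 3322 in water, 674, 307 and 102 in progressing, and 1208, 1042 and 723 in regressing libraries. The grafts had 132 and 154 V counts after PBS and 118 and 136 after ATO. Summed J counts were 267, 36 and 478 in water, 77, 25 and 454 in progressing, and 890, 812 and 437 in regressing libraries, against 18 and 47 after PBS and 178 and 120 after ATO in the grafts. The V sum differed most among the water tumours and was low in every graft library, where Trac had 3452 to 6345 counts. The thymus and graft tables were not tested against each other.

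Set against Trac in the same library, V counts per 100 Trac counts were 33.5, 34.9 and 58 in water and 25.9, 27.1 and 34.0 in regressing libraries. The progressing libraries gave 87.2, 32.7 and 2.34, so the third of them had far fewer V counts for its Trac than the other 8 thymus libraries. The grafts gave 2.70 and 4.46 after PBS and 1.86 and 2.42 after ATO, near that library. The J ratios of the grafts were 0.368 and 1.36 after PBS and 2.81 and 2.13 after ATO. J counts per 100 Trac counts were 16.5, 0.766 and 8.34 in water, 9.96, 2.66 and 10.4 in progressing, and 19.0, 21.2 and 20.5 in regressing libraries. Among the thymus groups, regressing libraries had the smallest SD in both ratios, with 20.2 ± 1.08 J counts per 100 Trac counts (SD, n = 3).

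**Figure D1:**
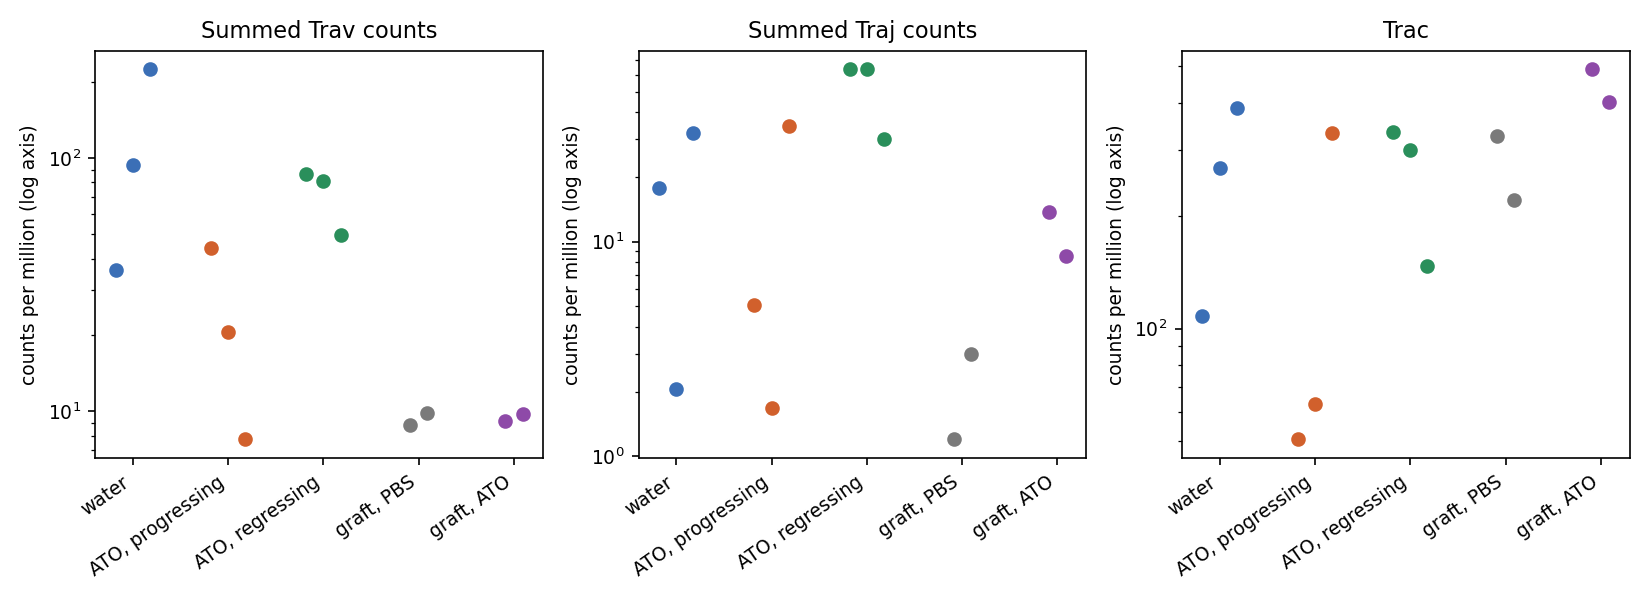
Summed Trav counts, summed Traj counts and Trac in CPM, on log axes that do not start at 0, with 1 point per library in 5 groups (3 water, 3 progressing, 3 regressing, 2 graft PBS and 2 graft ATO). Trav sums reach from 7.73 in a progressing library to 224 in a water library, and the 4 graft libraries lie between 8.79 and 9.85.

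In the water tumours a few V segments took most of the V counts, and a different one led in each library. Trav3-3 took 253 of 541 V counts (46.8%) in water 1, Trav10n 1404 of 1640 (85.6%) in water 2 and Trav10 1266 of 3322 (38.1%) in water 3. Exact Clopper-Pearson 95% intervals were 42.5% to 51.1%, 83.8% to 87.3% and 36.5% to 39.8%; like all intervals here they cover counting error only. The next segments were Trav12-3 with 108 and Trav9-4 with 100 counts in water 1, and Trav14d-3-dv8 with 106 and Trav4-4-dv10 with 52 in water 2. In water 3 Trav7-3 had 1048 and Trav6-3 had 919 counts.

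The leading 3 segments together held 92.6% ± 6.47 (SD, n = 3) of V counts in water. Trav10 and Trav10n were not high in the same tumour: water 3 had 1266 counts of Trav10 and 2 of Trav10n, and water 2 had 1 and 1404. The share of each library's V counts in segments that share over 50% of their windows was 22.9%, 91.7% and 99.3% in water 1, 2 and 3. Of the leaders themselves, Trav10n shared 63.6%, Trav10 60.2% and Trav3-3 40% of their windows with other V segments. Reads of each could thus fit other segments, and how certain the 3 names are was not tested.

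The regressing libraries showed the reverse picture, with many V segments at similar low shares. Their leading segments were Trav6-3 with 86 of 1208 counts (7.12%), Trav16 with 50 of 1042 (4.80%) and Trav15-2-dv6-2 with 31 of 723 (4.29%, level with Trav21-dv12). The leading 3 segments held 13.5% ± 1.72 (SD, n = 3). A V segment was detected, meaning at least 1 count, for 82, 78 and 78 of the 130 segments, against 31, 19 and 26 in water and 46, 49 and 22 in progressing libraries. Every regressing library had counts for 67 of the 130 V segments, a number that was 2 for water (Trav10 and Trav16n) and 6 for progressing tumours.

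The progressing libraries lay between these groups. Their leaders were Trav13-5 with 69 of 674 counts (10.2%, level with Trav21-dv12), Trav12-2 with 40 of 307 (13%) and Trav14n-1 with 18 of 102 (17.6%). The exact 95% interval of the last was wide, from 10.8% to 26.4%. The leading segment held 56.8% ± 25.3 in water, 13.6% ± 3.74 in progressing and 5.40% ± 1.51 in regressing libraries (SD, n = 3 each). The ranges of these 3 groups did not overlap.

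Detection depends on depth, so the number of V segments expected in 100 V counts was computed for each library. It was 14.7, 6.59 and 5.29 in water, 28.7, 34.2 and 21.9 in progressing, and 46.9, 46.9 and 46.1 in regressing libraries. The groups kept their order without overlap at this equal depth. The effective number of V segments, the inverse of the summed squared shares, was 2.62 ± 1.11 in water, 16.1 ± 4.70 in progressing and 44.2 ± 2.08 in regressing libraries (SD, n = 3 each). Grafts had effective numbers of 9.06 and 10.5 after PBS and 9.81 and 8.77 after ATO.

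**Figure D2:**
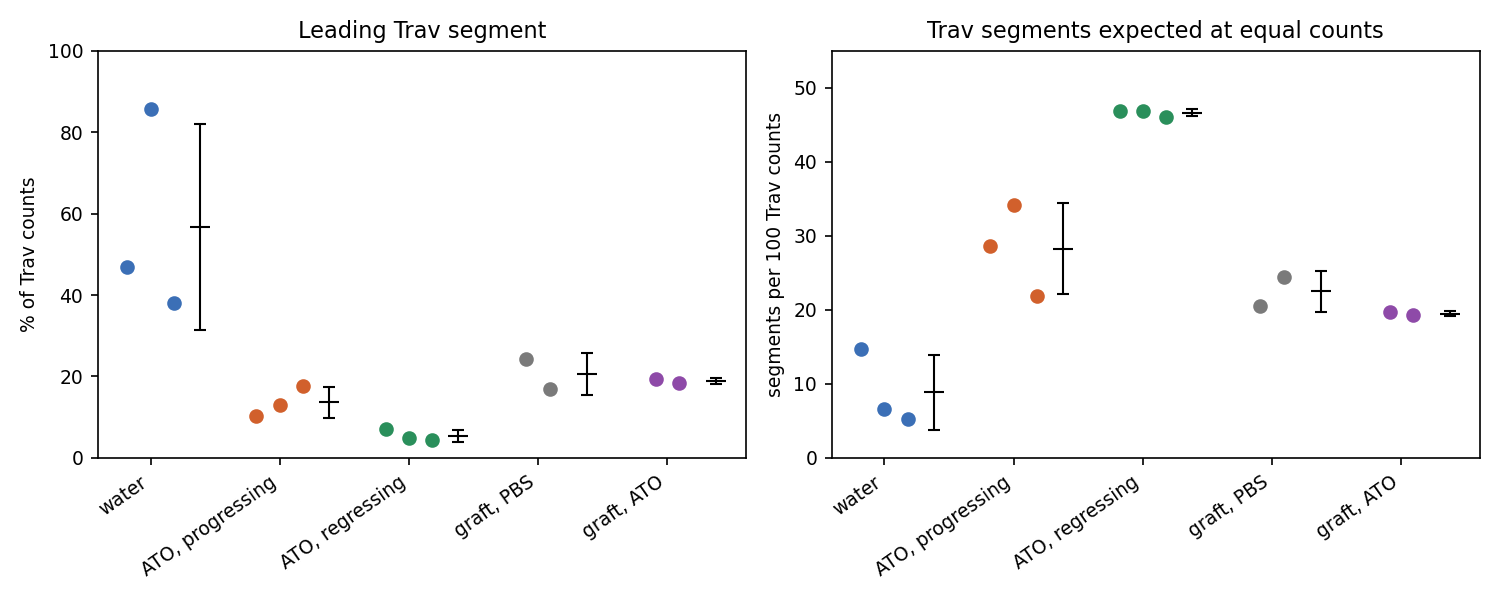
The share of V counts held by the leading Trav segment (left, percent) and the number of Trav segments expected in 100 V counts (right), with 1 point per library and bars for the mean ± SD (n = 3 in the thymus groups, n = 2 in the graft groups). Water libraries have the highest leading shares, 38.1% to 85.6%, and the lowest numbers of segments, 5.29 to 14.7, while the regressing libraries have 46.1 to 46.9 segments.

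Profiles were also compared pairwise by the share of counts that 2 libraries have in common, the sum over segments of the smaller of both shares. Water libraries had 0.392% to 4.83% of their V profiles in common, and progressing libraries 5.64% to 12.8%. Regressing libraries had 74.1% to 80.1% in common. Progressing 1 had 47.4% to 47.7% and progressing 2 had 39.7% to 41.2% in common with the regressing libraries, while progressing 3 had 6.93% to 11.7%. These values describe pairs of libraries and were given no test.

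Of 23 Trav families, numbered by sequence likeness, the regressing libraries had counts in 23, 23 and 22. Water libraries had counts in 13, 12 and 12. The largest family was Trav3 with 47.0% in water 1 and Trav10 with 85.7% and 38.2% in water 2 and 3. Trav14 led in each of the 3 progressing libraries, with 18.5%, 20.8% and 24.5%. It also led in regressing 3 (12.0%), PBS graft 2 (24.0%) and ATO graft 1 (22.9%). Its highest segments differed between progressing libraries: Trav14-2 and Trav14-3 with 33 counts each in progressing 1, Trav14-1 with 35 in progressing 2 and Trav14n-1 with 18 in progressing 3. No family exceeded 15.1% in a regressing library, a share reached by Trav6 in regressing 1.

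Position along the locus differed between tumours of the same group in the water and progressing groups. The V segments were split by number at Trav9n-3, which leaves 65 segments far from J and the 65 from Trav5n-3 to Trav23 next to J. The J-proximal 65 held 96.1%, 6.77% and 99.4% of V counts in water 1, 2 and 3. Progressing libraries had 92.9%, 75.6% and 6.86% of V counts there, and regressing libraries 81.1%, 80.8% and 84.4%. The groups overlapped, and the difference of regressing from water, 14.7 percentage points, was smaller than the SD of 52.6 among water libraries. Its direction rests on water 2: without that library it was -15.7 percentage points, and without water 1 or water 3 it was 29.0 or 30.7. The difference of regressing from progressing, 23.7 percentage points, was -2.12 without progressing 3, and that of progressing from water, -9.0, was 16.8 without it.

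The low share of water 2 rests on Trav10n, which lies in the distal 65, while its near-identical partner Trav10 lies in the proximal 65. Counted by blocks, the 34 n copies held 87.1% of V counts in water 2, against 2.03% and 0.331% in water 1 and 3. In progressing 3 the n copies held 57 of 102 V counts (55.9%) and the 40 d copies 36 (35.3%). The 48 segments from Trav7-2 to Trav23 had 1 count there, against 609 and 169 in progressing 1 and 2. Regressing libraries had 860, 742 and 554 counts in that block, 157, 147 and 77 in n copies and 128, 112 and 58 in d copies.

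The 10 V segments nearest to J, from Trav3-4 to Trav23, are those that the earliest joins favour. They had 0, 0 and 4 counts in water and 318, 0 and 0 in progressing libraries. Regressing libraries had 177, 164 and 121 counts, or 14.7%, 15.7% and 16.7% of V counts. So 4 of the 6 water and progressing libraries had none, and for the 541 V counts of water 1 a count of 0 allows a share of up to 0.555%. Progressing 1 stood apart with 47.2%, led by Trav21-dv12 and Trav13-5 with 69 counts each, Trav3-4 with 55, Trav17 with 47 and Trav18 with 38.

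The 8 segments at the far end of the locus, from Trav1 to the first d copy, had 2, 0 and 1 counts in water, 2, 15 and 8 in progressing and 63, 41 and 34 in regressing libraries. Trav1 itself had 0 counts in every water library, 0, 0 and 7 in progressing and 10, 9 and 10 in regressing libraries. The median V count lay at Trav13-1, Trav14-1 and Trav4-3 in the regressing libraries, 676, 666 and 622 kb upstream of Trac. In water it lay at Trav3-3 (555 kb), Trav10n (1098 kb) and Trav7-3 (777 kb).

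The 10 segments that the annotation also names dv, because they can join in delta as well as alpha chains, had 17, 158 and 2 counts in water and 168, 8 and 7 in progressing libraries. Regressing libraries had 164, 168 and 127 counts, or 13.6% to 17.6% of V counts. Trdc, the delta constant gene that alpha joins delete, had 13, 0 and 2 counts in water, 838, 3 and 0 in progressing and 2008, 2094 and 2069 in regressing libraries. Trdc was higher in regressing than in water libraries (log2 fold change 8.66 ± 2.16 SE, edgeR adjusted p = 0.0389, n = 3 each). The list of 10 gamma-delta T-cell markers, which includes Trdc, did not move with it. Its sum ranged from 832 to 1534 CPM in water, 94.2 to 231 in progressing and 357 to 461 in regressing libraries. Of 9 tested against water in regressing libraries, Trdc was called higher and Cd163l1 lower, and the median log2 fold change was -1.18. Progressing 1, with the most counts in J-proximal V segments among progressing libraries, was also the one with 838 Trdc counts.

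**Figure D3:**
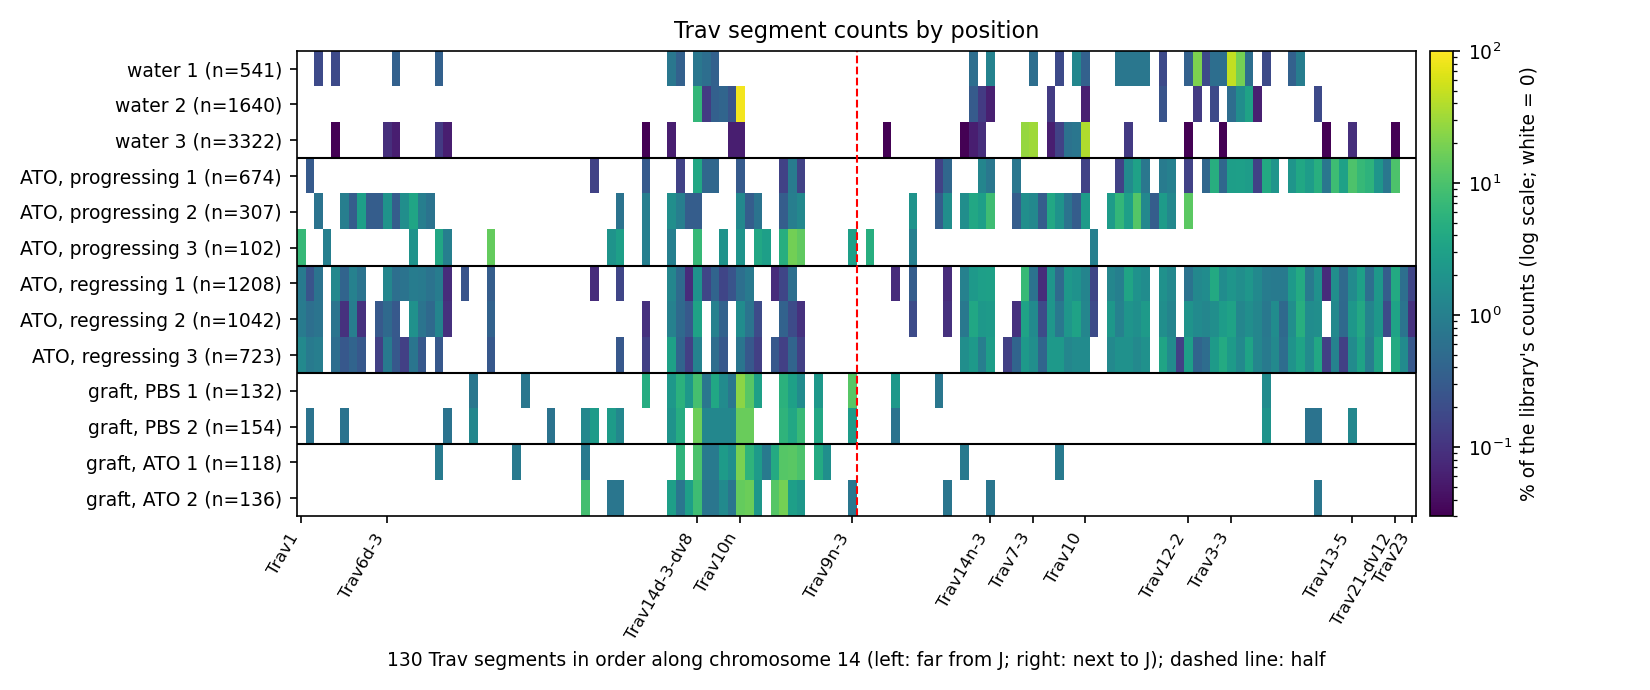
Share of each library's V counts (color, percent on a log scale, white for 0) in the 130 Trav segments in their order along chromosome 14, with 1 row per library and its number of V counts as n; the dashed line separates the 65 segments far from J from the 65 next to J. The 3 regressing rows span the locus, with gaps among the d and n copies, the water rows are dominated by 1 to 3 segments, and the 4 graft rows are filled mainly left of the line, with 1.69% to 5.19% to its right.

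At the J cluster the regressing libraries had counts for most segments, on the largest J sums of the thymus groups. They had counts for 57, 53 and 46 of the 60 J segments, and 42 segments had counts in all 3 libraries. Water libraries had counts for 29, 19 and 32 and progressing libraries for 31, 15 and 2 J segments. At an equal depth of 18 J counts this order was not kept: the expected number of J segments was 10.0, 10.8 and 10.3 in regressing, 10.1, 12.7 and 12.6 in water and 12.8, 12.0 and 2.00 in progressing libraries. The effective number of J segments was 10.3 ± 0.776 in regressing and 14.6 ± 4.75 in water libraries (SD, n = 3 each). Every regressing library was led by Traj1 (173, 152 and 88 counts, or 19.4%, 18.7% and 20.1% of J counts), the J pseudogene beside Trac, followed by Traj2 and Traj3. The J profiles of regressing libraries had 82.6% to 85.1% in common. Pairs of water libraries had 19.6% to 70.0%, pairs of progressing libraries 13% to 36.6%, and pairs of a water and a regressing library 17.2% to 77.4% in common, the last with water 1.

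Water 1 and water 3 had J counts almost only from Traj32 to Traj1. Upstream of Traj32, water 1 had 2 of its 267 J counts and water 3 had 2 of 478. Traj32, whose sequence is shown above, had 6 and 18 counts in these libraries. Water 2 had 36 J counts in all, 16 of them upstream of Traj32, and its leading segment was Traj50 with 5 counts (13.9%, exact 95% interval 4.67% to 29.5%). Profiles of water 2 are therefore imprecise.

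Split by number, the 30 J segments next to V, Traj61 to Traj32, held 3.0%, 50% and 4.18% of J counts in water. Progressing libraries had 24.7%, 16.0% and 0% of J counts there, and regressing libraries 16.9%, 16.9% and 21.7%. A count of 0 among the 454 J counts of progressing 3 allows a share of up to 0.661%. The difference between regressing and water, -0.57 percentage points, was small against the SD of 26.8 among water libraries. Without water 2 it was 14.9 percentage points, so that library decides its size.

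The outermost J segments, Traj61 to Traj58, had 0 counts in every water library. They had 5, 0 and 0 counts in progressing and 58, 56 and 44 in regressing libraries, where they held 6.52%, 6.90% and 10.1% of J counts. Traj61 had 17, 18 and 15 and Traj58 had 23, 26 and 14 counts in the regressing libraries. At the other end, Traj4 to Traj1 held 59.9%, 54.6% and 58.1% of J counts in regressing libraries, against 58.4%, 8.33% and 35.4% in water.

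Progressing 3 differed from all other thymus libraries at the J cluster. Its 454 J counts came from Traj1 (334) and Traj2 (120) alone, although its Trac count of 4367 was among the higher ones. Progressing 1 was led by Traj26 with 12 of 77 J counts (15.6%) and progressing 2 by Traj1 with 5 of 25 (20.0%). No J segment other than Traj1 had counts in all 3 progressing libraries.

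**Figure D4:**
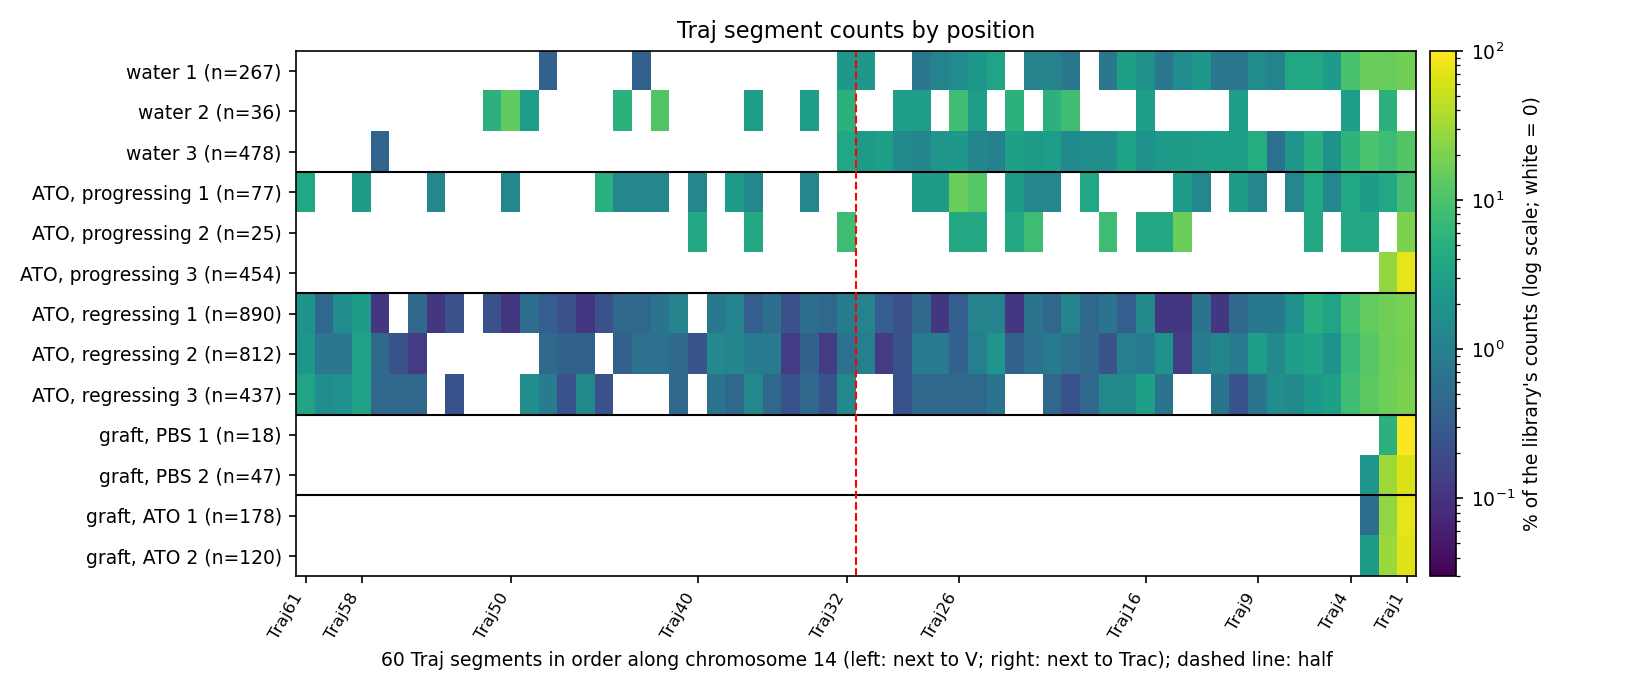
Share of each library's J counts (color, percent on a log scale, white for 0) in the 60 Traj segments in order from the V side (left) to the Trac side (right), with 1 row per library and its number of J counts as n; the dashed line separates the 30 segments next to V from the 30 next to Trac. Rows of water 1 and 3 are filled from Traj32 on, with 2 counts each to its left, the regressing rows span the cluster, and progressing 3 and the 4 grafts are filled only at Traj1 to Traj3.

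Segments were then tested one by one in the fit over all genes of the thymus table, to ask how ATO-treated tumours with either outcome differ from untreated ones. Of the 190 segments, 45 (36 V and 9 J) passed the filter on low counts. A segment that passed through 1 group had to be high there, so counts and medians over these 45 describe them and are not evidence for the rest. Of the 190, 25 V segments and 1 J segment (Traj52) had 0 counts in all 13 mouse libraries.

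Against water, the regressing libraries were higher for 3 segments: Traj58 and Traj61 at the V side of the J cluster and Trav4-3 in the proximal V block. All 3 had 0 counts in every water library, and Trav4-3 had 16, 12 and 11 counts in the regressing libraries. Taking 3 counts per library as the floor, Traj58 was at least 6.88-fold, Traj61 at least 5.45-fold and Trav4-3 at least 4.22-fold higher. The edgeR adjusted p was 0.0245 for Traj58, 0.0333 for Traj61 and 0.0408 for Trav4-3. Only Traj58 and Traj61 had a mean level of 1 CPM or more in the regressing group, at 1.39 ± 0.457 and 1.10 ± 0.148 (SD, n = 3). These 3 were singled out after their values were seen.

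The 3 called segments are 6.67% of the 45 tested, against 7.70% of all genes called in either direction and 3.13% called higher, a share near the background in either direction. At an unadjusted p under 0.05, 26 of the 45 were higher and 2 lower, against 28.0% of all genes in either direction. The median log2 fold change was 3.49 for the tested segments and -0.11 for all genes. Leaving out any 1 of the 6 libraries left 0 or 1 of these calls: Traj58 without water 2 or water 3, and none otherwise. DESeq2 called 10 of the 45 segments, against 18.5% of all genes, and limma-voom 14, against 7.93% of all genes.

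Some V segments, named here because of their values, had at most 1 count in any water library and were present in all regressing ones without passing the test. The share of all genes with this pattern was not counted, so the examples describe only themselves. Trav19 had 27, 23 and 26 counts in regressing libraries and 0 in water (edgeR adjusted p = 0.0525), and Trav17 had 36, 42 and 24 against 0 (edgeR adjusted p = 0.0747). Trav21-dv12 had 50, 35 and 31 counts against 0, 0 and 1 (edgeR adjusted p = 0.0760). Of the segments that led a water tumour, Trav10n was not tested, and Trav3-3 and Trav10 did not pass (edgeR adjusted p = 0.532 and 0.143). Trav7-3, the next after Trav10 in water 3, had 8, 15 and 12 counts in regressing libraries against 3, 0 and 1048 in water (edgeR adjusted p = 0.158). For Trav3-3, Trav10 and Trav7-3 the water libraries overlapped the regressing ones.

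Between progressing and water libraries no segment passed edgeR's test, against 11.9% of all genes. At an unadjusted p under 0.05 there were 20 of the 45 segments, 11 higher and 9 lower, against 28.6% of all genes. DESeq2 called 5 of the 45, against 20.6% of all genes. Values of single segments were spread over the libraries. Traj3 had 2, 1 and 0 counts in progressing and 43, 0 and 48 in water libraries (edgeR adjusted p = 0.0593). Among V segments, Trav3-4 had 55, 0 and 0 counts in progressing and 0 in every water library (edgeR adjusted p = 0.102). The median log2 fold change was 1.75 for the tested segments and -0.04 for all genes. Without water 2, 7 of 61 tested segments were called, all lower, against 13.3% of all genes.

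Between the outcomes under ATO, J segments near Trac were higher in regressing tumours. Traj3 had 128, 98 and 57 counts in regressing and 2, 1 and 0 in progressing libraries, at least 28.2-fold higher (log2 fold change 6.29 ± 1.47 SE, edgeR adjusted p = 0.0259). Traj4 had 78, 59 and 36 against 3, 1 and 0 counts, at least 17.2-fold higher (log2 fold change 5.22 ± 1.21 SE, edgeR adjusted p = 0.0254). Neither group overlapped the other for these segments. The neighbours Traj2 and Traj1 did overlap: Traj2 had 154, 134 and 73 against 3, 0 and 120 counts, and Traj1 173, 152 and 88 against 7, 5 and 334.

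A further 5 segments passed the test with a mean under 1 CPM over the compared libraries, and are named because of their values. They were Traj5 (30, 15 and 13 against 1, 0 and 0 counts), Traj7 (16, 23 and 6 against 1, 0 and 0) and Traj58 (23, 26 and 14 against 2, 0 and 0). The V segments were Trav15-2-dv6-2 (19, 28 and 31 against 3, 0 and 0 counts) and Trav6-5 (23, 34 and 11 against 0, 1 and 0). Lower bounds on the fold ranged from 4.57 for Traj7 to 7.88 for Trav15-2-dv6-2.

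The 7 called segments, all higher in regressing tumours, are 15.6% of the 45 tested, against 12.6% of all genes called in either direction and 6.45% called higher. Of the tested J segments 5 of 9 were called, and of the V segments 2 of 36. The median log2 fold change was 2.00 for the tested segments and -0.07 for all genes. Without progressing 1 the number called was 12 of 59 tested, 4 of them among the 7, against 10.5% of all genes. Without progressing 2 it was 2 of 62, neither of them among the 7, against 7.12% of all genes. Without progressing 3 or any 1 regressing library it was 0, against 0.922% to 2.86% of all genes. Traj3 and Traj4 thus lost their calls in 5 of the 6 fits that left out a library, with adjusted p up to 0.0836 and 0.0890 in edgeR. The 2 comparisons with water share the water libraries, and this one shares its libraries with both, so they are not independent.

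Genes outside the segments that take part in the joining were read from a list of 38 genes chosen for known roles. Against water, 11 were higher and 1 was lower in regressing tumours, and 11 were higher and 1 was lower in progressing tumours. Of all genes, 7.70% and 11.9% were called in these comparisons. Between regressing and progressing tumours 1 was higher and none was lower, against 12.6% of all genes called. The recombinase genes Rag1 and Rag2 and Dntt, whose enzyme adds bases at joins, were higher against water in both. Rag1 had 33, 30 and 10 counts in water, 9583, 3052 and 18859 in progressing and 53295, 48074 and 22844 in regressing libraries.

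The log2 fold change of Rag1 against water was 10.67 ± 0.95 SE in regressing (edgeR adjusted p = 0.00135) and 8.80 ± 0.89 SE in progressing tumours (edgeR adjusted p = 0.00107). Lig4, the ligase that seals the joins, was also higher in both, at 96.4 ± 27.1 CPM in regressing and 103 ± 38.7 in progressing against 12.5 ± 2.46 in water libraries (SD, n = 3 each, scaled by TMM). So were Ptcra, which pairs with the beta chain before an alpha chain exists, and the transcription factors Bcl11b, Myb and Runx1. Xrcc5, a subunit of the Ku end-binding complex, was the gene lower in regressing tumours, at 24.7 ± 2.09 against 79.4 ± 15.4 CPM.

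Bcl2l1, whose product keeps double-positive thymocytes alive, was the 1 gene of the 38 called between the outcomes, fewer than the share over all genes would give. Regressing tumours had 124 ± 26.7 CPM and progressing tumours 48.3 ± 15.0, a log2 difference of 1.36 ± 0.35 SE (edgeR adjusted p = 0.0343, n = 3 each). Rag1 did not pass there (1.87 ± 0.64 SE on the log2 scale, edgeR adjusted p = 0.0779). The lists of double-positive thymocyte and thymic epithelium markers had 0 and 6 of 10 genes called higher in regressing than in progressing tumours.

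In the grafts the V counts came from the distal side of the locus and the J counts from its last segments. The J-proximal 65 V segments held 4.55% (PBS 1) and 5.19% (PBS 2) of V counts, and with ATO 1.69% and 2.21%. The leading V segments were Trav10n after PBS in graft 1 (32 of 132 counts, 24.2%), Trav14d-3-dv8 after PBS in graft 2 (26 of 154, 16.9%), Trav10n after ATO in graft 1 (23 of 118, 19.5%) and Trav13n-1 after ATO in graft 2 (25 of 136, 18.4%). The n copies held 72.7% and 59.1% after PBS and 79.7% and 73.5% after ATO. The d copies held 25.8%, 35.1%, 19.5% and 25.7% in the same order. Segments that share over 50% of their windows with another V segment held 68.9%, 60.4%, 78% and 68.4% of graft V counts and 76.5% of those of progressing 3. Some of their partners lie on the proximal side, and how the assignment of reads to copies bears on the distal share was not tested.

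The same V segments recurred in the graft libraries. In PBS grafts Trav10n had 32 and 24 counts, and in ATO grafts 23 and 20, and Trav6n-6 had 16 and 24 against 7 and 22. Trav14n-1 had 4 and 6 against 15 and 4, and Trav13n-1 had 7 and 9 against 14 and 25. Of the 130 V segments, 42 had a count in some graft library and 11 in all 4. Pairs of graft libraries had 56.6% to 65% of their V profiles in common, with pairs of unlike treatment at 56.6% to 62.2% and the pairs of like treatment at 65% and 57.4%.

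ATO-treated grafts had a lower J-proximal V share than PBS grafts by 2.92 percentage points, 1.95% ± 0.361 against 4.87% ± 0.459 (SD, n = 2 each), without overlap. It rests on 2 and 3 proximal counts after ATO and 6 and 8 after PBS, and the exact 95% intervals of the 4 libraries overlap (0.206% to 5.99% and 0.457% to 6.31% after ATO, 1.69% to 9.63% and 2.27% to 9.97% after PBS). These intervals are no test of the difference, and none was made. Among segments with at least 10 counts no graft library had any proximal count.

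Every J count of the grafts fell on Traj3, Traj2 or Traj1. In PBS grafts Traj1 had 17 and 31 counts, and in ATO grafts 131 and 82, and Traj2 had 1 and 15 against 46 and 35. Traj3 had 0 and 1 against 1 and 3 counts. For the 57 other J segments a count of 0 allows a share of up to 16.7% and 6.38% of the J counts of the PBS grafts, and of up to 1.69% and 2.5% of those of the ATO grafts.

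**Figure D5:**
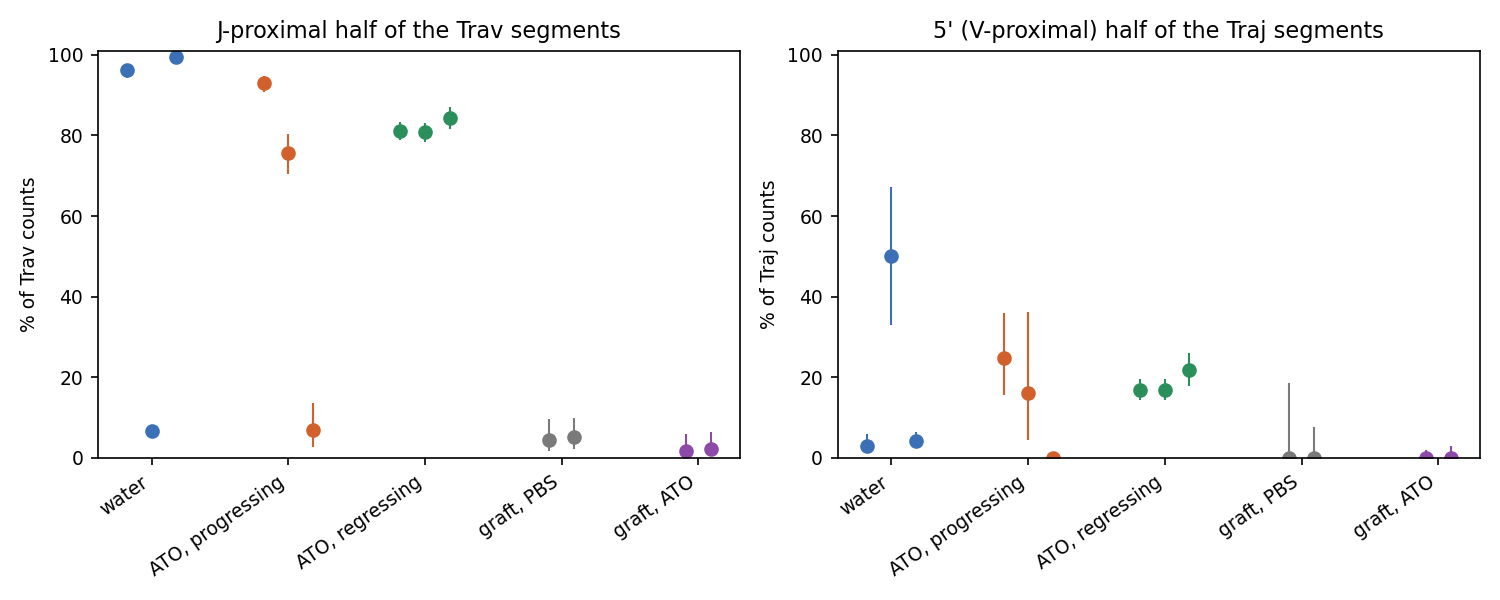
Share of V counts in the 65 Trav segments next to J (left) and of J counts in the 30 Traj segments next to V (right), in percent, with 1 point per library and exact 95% binomial intervals as lines (short ones are hidden by the points). Regressing libraries sit between 80.8% and 84.4% on the left and between 16.9% and 21.7% on the right, water and progressing libraries are spread, and the 4 grafts are at 1.69% to 5.19% and at 0%.

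Traj1 rose in the ATO grafts, from 1.66 ± 0.596 to 7.53 ± 3.02 CPM (SD, n = 2 each, scaled by TMM; log2 fold change 2.17 ± 0.50 SE, edgeR adjusted p = 0.0197). It was 1 of 7 tested segments called (14.3%), against 13.9% of all genes called in either direction and 7.37% called higher. Traj2 was at 2.85 ± 0.772 against 0.540 ± 0.661 CPM and did not pass (edgeR adjusted p = 0.0663), and none of the 5 V segments tested had an unadjusted p under 0.05. The fitted change of Trac was 0.51 ± 0.24 SE on the log2 scale. Without PBS 1 the call of Traj1 was lost (edgeR adjusted p = 0.112).

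Of the 38 genes around the joining, 36 were tested in the grafts, and 3 were higher and 4 lower after ATO, against 13.9% of all genes called in either direction. Higher were the damage kinase genes Atm and Prkdc and Dclre1c, which encodes the Artemis nuclease. Lower were Dntt, at 450 ± 18.8 against 966 ± 127 CPM (SD, n = 2 each), Ptcra, Cd3d and Hmgb2. In PBS grafts Rag1 had 6118 and 7455 counts, and in ATO grafts 6916 and 6469, which overlapped. Trdc had 0 counts in all 4 grafts. Summed fibroblast markers ranged from 245 to 493 CPM after PBS and from 645 to 1671 after ATO. Of these 7 markers, 4 were called higher (Col1a1, Col1a2, Col3a1 and Pdgfra). Summed T-cell markers ranged from 7568 to 9201 CPM after PBS and from 4500 to 6193 after ATO, with 1 of 10 called lower (Cd3d). Summed macrophage markers ranged from 683 to 906 and from 347 to 402 CPM, with 4 of 8 called lower. The part of these cells in the segment differences was not tested.

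Progressing 3 and the grafts, from separate tables, were alike in several of these values. Traj1 and Traj2 together held 100% of J counts in progressing 3 and 97.5% to 100% in the grafts. Their proximal V shares were 6.86% and 1.69% to 5.19%, and their V counts per 100 Trac counts 2.34 and 1.86 to 4.46. Progressing 3 and the grafts also shared 0 Trdc counts. Water 2 also had a low proximal V share (6.77%) and 0 Trdc counts, but 34.9 V counts per 100 Trac counts and J counts spread over 19 segments. The leading V segment of progressing 3, Trav14n-1 with 18 counts, led no graft but was second in ATO graft 1 with 15 counts. Next in progressing 3 were Trav13d-1 and Trav15n-1 with 15 and 14 counts. Trav13d-1 had 0 counts in every graft, and Trav15n-1 had 2 and 11 after PBS and 12 and 3 after ATO. Trav10n, which led PBS graft 1 and ATO graft 1, had 2 counts in progressing 3. No test was made across the tables, which differ in build and in their number of genes. How reads that fit several copies were counted is not known for either table, and its part in this likeness was not tested.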

How the data were processed

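RNA was sequenced from 9 thymus and 4 graft libraries, grouped by the sample labels; the 2 U937 cell libraries hold no mouse segments and were not used here. Per system, the authors deposited a table of unnormalized read counts for each gene, with FPKM values and exonic lengths beside them. FPKM values, as deposited, served only to check library totals. Reads were handled with FastQC 0.10.1, cutadapt 1.9.1 and HISAT2 2.0.1 against GRCm38 (mm10), per the submitters' processing notes. In the graft table, however, 0 of the 190 segments were at their GRCm38 coordinates, so the build behind that table is not known here. The annotation release, the program that counted reads and whether it used strand are not given in the sources used here. Per the labels' protocols, total RNA was isolated with TRIzol and made into libraries with a SMARTer mRNA kit; the same text holds a cell culture passage that does not describe these tissues.

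Segment counts were summed per library and taken as shares of all V or all J counts. Intervals are exact Clopper-Pearson at 95%, and a count of 0 was given an upper limit of 3 counts. Genes were tested on the counts with edgeR 4.0.16 in R 4.3.3 (filterByExpr, TMM, quasi-likelihood F test), over 18119 thymus genes in 3 groups and 15468 graft genes, with Benjamini-Hochberg adjustment over all genes tested and a threshold of 0.05. Each standard error was derived from the fitted change and its F statistic. CPM given with an SD, and summed markers, are scaled by TMM; summed segments are CPM of the plain total. No p-value was computed for shares. Named are the leading V and J segment of each library, per comparison up to 5 called rises and falls averaging 1 CPM or more, and Trac, Trdc, Rag1 and Rag2; other names were chosen after their values were seen. Members and lists were chosen with earlier results of these data known. Alternatives were another normalization (RLE), no filter, DESeq2 1.42.0, limma-voom (limma 3.58.1), a replicate block, only the compared groups, and each library left out; for shares, the nearest 1 of 3 segments in place of 1 of 2, length scaling, no leading segment and at least 10 counts. On simulated data with the thymus design, regressing against water, 53% of genes changed 8-fold and 0% of those changed 2-fold were recovered among 18119 genes. With the graft design it was 97% and 38% among 15468. The changed genes were drawn from those averaging over 1 CPM, so these rates do not describe segments below that level.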

Additional observations from a re-analysis of the deposited data

How the results depend on the processing

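Number of segments called. Percentages in brackets are the share of all genes called under the same setting. For regressing against water (3 of 45 tested, 7.70%), it was 24 of 157 with no filter on low counts (7.81%). It was 10 of 45 with DESeq2 (18.5%), 14 of 45 with limma-voom (7.93%) and 14 of 41 with only the compared groups (10.1%). Leaving out 1 library gave 0 to 1 (0.312% to 6.31%). For progressing against water (0 of 45, 11.9%), it was 19 of 157 with no filter (10.4%) and 5 of 45 with DESeq2 (20.6%). Leaving out 1 library gave 0 to 7, with 7 of 61 called without water 2 (13.3%). Without water 1 or water 3, 2 were called (7.08% and 7.16%). For regressing against progressing (7 of 45, 12.6%), it was 18 of 157 with no filter (10.5%). Leaving out 1 library gave 0 to 12, with 12 of 59 called without progressing 1 (10.5%). For the grafts (1 of 7, 13.9%), it was 4 of 45 with no filter (11.8%) and 2 of 7 with limma-voom (13.1%). Leaving out 1 graft gave a log2 fold change of Traj1 from 1.68 to 2.57. There the lone sample of a group is assumed to vary like the other group. Traj3 and Traj4 kept their calls under RLE, no filter, DESeq2, limma-voom and only the compared groups, and without progressing 1, and lost them in the other 5 fits that left out a library. The cause was not tested.

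With the replicate number as a block, the counts were 1, 0, 3 and 0 in the same order. Of all genes, 5.28%, 7.75%, 8.81% and 8.73% were called there. The graft Traj1 had an edgeR adjusted p of 0.0506 in that fit. Same-numbered thymus libraries correlated at -0.124 to 0.136 in their deviations from the group means. Of the 9, 3 correlated best with their own number in every other group. The labels do not say whether the numbers pair the samples, and these correlations do not settle it. Same-numbered grafts correlated at -0.13. In groups of 2 the deviations mirror each other, so both pairs must give the same value. With the numbers crossed, a choice made after seeing the data, 2 of 7 tested segments were called, against 21.3% of all genes.

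The J-proximal V share of ATO minus PBS grafts (-2.92 percentage points) was -2.24 for the nearest 1 of 3 segments, -3.72 without the leading segment and 0 among segments with at least 10 counts. Share differences among thymus groups moved by less than their SD, but several changed sign when 1 library was left out. Left-out ranges for V were -15.7 to 30.7 percentage points for regressing minus water, -39.3 to 16.8 for progressing minus water and -2.12 to 40.9 for regressing minus progressing. For J they were -8.60 to 14.9, -13.5 to 9.97 and -1.85 to 10.5 in the same order. With Traj2 and Traj1 left out, added after seeing the data, or with at least 10 counts, some J shares had no counts left in a library and gave no value. No called segment changed direction. The small V and J counts, 18 to 890 for J, limit what single segments can show.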
